A study of Mus musculus with 20 samples.

Results

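The genes described here are 8 genes that mark the white adipocyte, the fat-storing cell of adipose tissue. They are the secreted products Adipoq, Lep, Retn and Cfd, the lipid droplet proteins Plin1 and Cidec, Lpl, which frees fatty acids, and Fabp4, which carries them. They were picked by gene symbol as signs of surrounding fat, at a point when earlier results of these data were known, though no value enters the rule. Of the 8, 7 were found in the platform annotation, each in 1 row, among 30142 named genes in all. Cfd, which codes for adipsin, had no row of that name and was not analysed here.

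RNA from 20 samples of bladder and metastasis from FVB/N mice was measured on Affymetrix whole-transcript arrays. All groups shared a labelled genotype that includes Rbf/f and p107-/-, so the control bladders carry the same germline alleles as the tumors. There were 5 control bladders, whose labels name no virus, 7 bladder tumors, 3 bladders of treated mice, 4 metastases of untreated mice and 1 metastasis of a treated mouse. Tumors followed delivery of an adenovirus coding for Cre, the enzyme that removes floxed DNA, into the bladder. The labels do not say which bladder cells took up the virus. Treated mice were given CM272, an inhibitor of G9a and DNA methyltransferases, at 5 mg/kg/day into the peritoneum for 30 days, and a weekly dose of 6 mg/kg cisplatin (CDDP). The labels name neither the organ of each metastasis nor the age or sex of the mice. Samples are only numbered within a group, and nothing says that they came from separate animals. The p-values then measure no more than the spread among the samples at hand, which may be technical. All values are log2 RMA values, on which a difference of 1 is a 2-fold change.

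White adipocytes hold triglyceride in a large droplet. Lipoprotein lipase (Lpl) frees fatty acids from circulating lipoproteins at the vessel wall, Fabp4 carries them inside the cell, and perilipin 1 (Plin1) and Cidec coat the droplet, limiting lipolysis and promoting droplet fusion. The same cells secrete adiponectin (Adipoq) and leptin (Lep) and, in mice, resistin (Retn). Fat lies around the bladder wall and in many organs, so its RNA can enter a bulk sample. Outside fat, Fabp4 is also made by capillary endothelium and macrophages, and Lpl by macrophages and muscle. In bulk tissue, fewer adipocytes and less RNA per adipocyte cannot be told apart.

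The measured members lie on 5 chromosomes. In the assembly GRCm38.p6, Adipoq (gene ID 11450) is annotated at chr16:23146536-23157968, Lep (16846) at chr6:29060221-29073876 and Retn (57264) at chr8:3655770-3659818. Plin1 (103968) is at chr7:79721164-79732904 and Cidec (14311) at chr6:113424634-113435760. Lpl (16956) is at chr8:68880555-68906932 and Fabp4 (11770) at chr3:10204342-10208616. The labels give no build, and these positions serve only to identify the genes.

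The promoters of Adipoq, Retn and Lep are shown because Adipoq and Retn were the pair of members whose values followed each other most closely over the arrays, while Lep, the other hormone, followed Adipoq at r = 0.04 and Retn at r = 0.40. Each run holds the 250 bases before the annotated start of the RefSeq transcript on the gene's strand (all plus), 5′ to 3′, and capitals mark matches to the motifs searched.
Adipoq, chr16:23146286-23146535: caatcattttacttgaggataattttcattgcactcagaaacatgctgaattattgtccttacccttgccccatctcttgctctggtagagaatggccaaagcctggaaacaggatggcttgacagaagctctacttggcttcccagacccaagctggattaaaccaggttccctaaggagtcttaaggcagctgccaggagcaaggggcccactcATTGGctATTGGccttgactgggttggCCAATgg
Retn, chr8:3655520-3655769: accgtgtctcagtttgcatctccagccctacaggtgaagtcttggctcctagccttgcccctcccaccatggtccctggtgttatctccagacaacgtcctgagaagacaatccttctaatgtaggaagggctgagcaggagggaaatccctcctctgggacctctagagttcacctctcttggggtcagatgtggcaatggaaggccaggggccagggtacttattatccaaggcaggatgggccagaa
Lep, chr6:29059971-29060220: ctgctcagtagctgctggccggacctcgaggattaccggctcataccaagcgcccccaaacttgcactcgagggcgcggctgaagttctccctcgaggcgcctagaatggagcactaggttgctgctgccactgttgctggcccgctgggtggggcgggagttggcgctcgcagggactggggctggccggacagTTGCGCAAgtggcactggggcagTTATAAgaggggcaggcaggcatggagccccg
The motifs were the palindromic C/EBP-type site TTGCGCAA, the CCAAT box, the nuclear receptor half-site AGGTCA, the direct repeat of that half-site with 1 base between the copies, which therefore always overlaps it, and the TATA-box core TATAA. Both strands were searched. Of all 32851 windows of the same length, 0.164% held TTGCGCAA, 33.8% CCAAT, 14.0% AGGTCA, 0.0335% the direct repeat and 22.8% TATAA. The Adipoq window held 3 matches to CCAAT, of which 2 were on the reverse strand. The Lep window held TTGCGCAA, from 55 to 48 bases before the start, and a pair of overlapping TATAA matches on opposite strands. The Retn window held none of these motifs. A match is only an occurrence of these letters, and no binding was measured here.

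A few facts on the arrays bear on every comparison. In 8 arrays (metastasis 3 and 4, bladder tumor 3, 4 and 5, control bladder 4, 5 and 6) the deviations from the mean of all arrays correlated with those of no other array above 0.14, whereas each of the other 12 had a partner at 0.33 or more. These 8 are called near-mean arrays below, and they make up 3 of 5 controls, 3 of 7 tumors and 2 of 4 metastases, with 0 of 3 treated bladders. How their deposited values came to lie so close to the mean is not known here, and the scanner files were not used. Whether they measure their samples as the other 12 do was not tested, so every SD, n and p-value that includes them is subject to that doubt. The only controls outside that set were control bladder 1 and 2, in which Xist stood at 10.76 and 10.88, against 4.47 to 6.44 in the other 18 arrays, so that without the near-mean arrays control status and high Xist cannot be told apart. Control bladders 1 and 2 also had high smooth muscle lists (1.73 and 1.72 above the mean of all arrays). Bladder tumor 7 carried the highest levels of both smooth muscle (2.76) and urothelial (2.77) genes.

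No member passed the test between any groups. limma with Benjamini-Hochberg adjustment over 30142 genes called 0 of 7 members in each of the 5 comparisons at an adjusted p under 0.05, and the background was the same, 0% of all genes in each. At an unadjusted p under 0.05 there were 2 member differences. Adipoq was lower in treated than in control bladder (1 of 7 members, background 0.763%), and Lpl was higher in metastasis than in tumor (1 of 7, background 6%). In tumor against control (background 4.28%), treated bladder against tumor (0.488%) and metastasis against control (7.12%), 0 of 7 members reached that level. All comparisons with control share the 5 control arrays, and those with tumor share the 7 tumor arrays. In level, only Fabp4 stood high, with a mean over the 20 arrays above that of 97.3% of all genes. The means of Lpl, Retn and Adipoq were above those of 68.8%, 65.5% and 62.6% of genes. Those of Cidec (5.32) and Plin1 (5.24) lay under the median of all gene means, 5.33, and Lep (4.5) was above only 7.8% of genes. Whether the dim members stand above background was not tested.

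Among the secreted hormones, adiponectin, which raises insulin sensitivity, had its highest level in the treated metastasis and its lowest in a bladder tumor. Adipoq values were 5.74, 6.23, 5.55, 5.72 and 6.10 in control bladders 1, 2, 4, 5 and 6. The bladder tumors ran from 5.05 to 5.91 with a median of 5.45, and the treated bladders stood at 5.51, 5.10 and 5.48. The metastases stood at 6.24, 5.25, 5.19 and 5.73, and the treated metastasis at 6.34. All 3 treated bladders lay below all 5 controls, the highest treated array standing at 5.51 and the lowest control at 5.55, while the tumors and the metastases overlapped the controls.

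Group means of Adipoq were 5.87 ± 0.29 (SD, n = 5) in control bladder, 5.60 ± 0.49 (SD, n = 4) in metastasis, 5.50 ± 0.31 (SD, n = 7) in tumor and 5.36 ± 0.23 (SD, n = 3) in treated bladder, and no neighbours in this order differed beyond their spread. The treated bladder minus control difference was -0.51 ± 0.24 (SE), with a 95% interval from -1 to -0.01 and limma's unadjusted p = 0.0458, but adjusted p = 1. Tumor minus control was -0.36 ± 0.19 (SE), with limma's adjusted p = 0.999. Tumor and treated bladder differed by -0.14, less than the spread in either group.

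Resistin, a hormone that rodent adipocytes secrete, followed the same order in bladder. Retn values were 6.05, 6.41, 5.99, 5.90 and 5.56 in control bladders 1, 2, 4, 5 and 6, and 5.38, 5.33 and 5.73 in treated bladders 1 to 3. The tumors ran from 5.19 to 6.13 with a median of 5.46. The metastases stood at 6.26, 5.13, 5.36 and 5.91, and the treated metastasis at 6.25. Control bladder 6 overlapped the treated bladders, and the 4 other controls lay above them.

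Means of Retn were 5.98 ± 0.31 (SD, n = 5) in control bladder, 5.66 ± 0.51 (SD, n = 4) in metastasis, 5.59 ± 0.37 (SD, n = 7) in tumor and 5.48 ± 0.22 (SD, n = 3) in treated bladder. Retn was lower in treated bladder than in control by 0.50 ± 0.26 (SE) on the log2 scale, with limma's adjusted p = 1, and the tumor minus control difference was -0.40 ± 0.21 (SE), with limma's adjusted p = 0.999. Neither passed the test.

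Leptin, which signals fat stores to the brain, was the dimmest member (mean 4.5 over the 20 arrays) and had group means close together. Lep ran from 4.06 to 4.89 in the controls, from 4.19 to 4.96 in the tumors, from 4.05 to 4.64 in the treated bladders and from 4.10 to 5.14 in the metastases, with 4.63 in the treated metastasis. Its group means lay between 4.41 and 4.56, closer together than the SD of any group (0.25 to 0.49). The 95% intervals of its differences are wider than these gaps, so equal levels are not shown. Metastasis minus control was 0.07, but over the settings tried it ran from -0.68, without the near-mean arrays, to 0.70. Outside the near-mean set, metastasis 1 and 2 (4.10 and 4.19) lay below control bladders 1 and 2 (4.89 and 4.77). Within that set, metastasis 3 and 4 (4.80 and 5.14) lay above control bladders 4, 5 and 6 (4.38, 4.36 and 4.06). Metastasis 4 held its highest value, and metastasis 1, which was high for the other members, stood at 4.10.

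**Figure D1:**
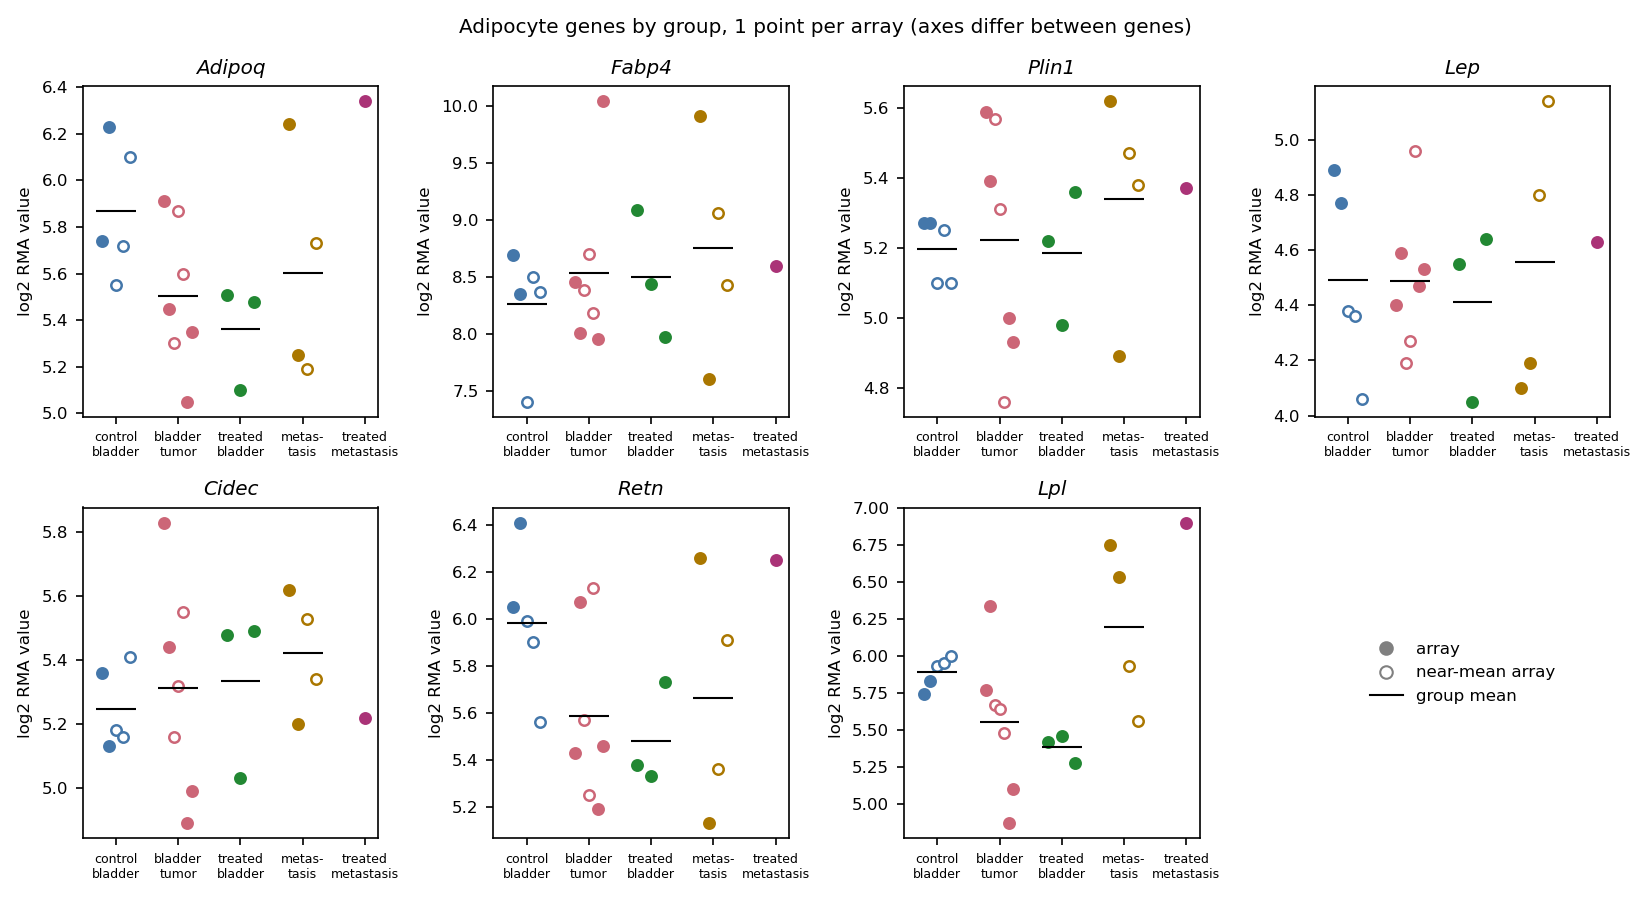
Log2 RMA value of each of the 7 measured adipocyte genes in each array (y axis), by group (x axis). Points are arrays, open for the near-mean arrays, and lines are group means where a group has more than 1 array. The 3 treated bladders lie below all 5 controls for Adipoq and Lpl, and bladder tumor 7 and metastasis 1 stand at 10.04 and 9.91 for Fabp4.

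The group means of the droplet proteins lay close together. Plin1, the droplet coat that gates lipolysis, ran from 5.10 to 5.27 in the controls, from 4.76 to 5.59 in the tumors, from 4.98 to 5.36 in the treated bladders and from 4.89 to 5.62 in the metastases, with 5.37 in the treated metastasis. Its means were 5.2, 5.22, 5.19 and 5.34 in control, tumor, treated bladder and metastasis, and the SD grew from 0.09 in the controls to 0.33 in the tumors and 0.31 in the metastases. Treated bladder minus control was -0.01 ± 0.19 (SE).

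Cidec, which promotes droplet fusion, ran from 5.13 to 5.41 in the controls, from 4.89 to 5.83 in the tumors, from 5.03 to 5.49 in the treated bladders and from 5.2 to 5.62 in the metastases, with 5.22 in the treated metastasis. Its means were 5.25, 5.31, 5.33 and 5.42 in the same order, and treated bladder minus control was 0.09 ± 0.18 (SE). The highest array was bladder tumor 1 and the lowest bladder tumor 6. Over the 20 arrays, Cidec followed the mean of 1771 chemosensory receptor genes, which bladder is not known to use and which here stand for background signal, with r = 0.57 (0.61 in the 12 arrays outside the near-mean set), while for the other members r lay between -0.25 and 0.21. That mean was 5.26 in bladder tumor 1 and 4.65 in bladder tumor 6, and its part in the Cidec values was not tested beyond its use as a covariate.

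Lipoprotein lipase had the widest differences between groups. Lpl values were 5.74, 5.83, 5.93, 5.95 and 6.00 in control bladders 1, 2, 4, 5 and 6, and 5.42, 5.46 and 5.28 in treated bladders 1 to 3. The tumors ran from 4.87 to 6.34 with a median of 5.64. The metastases stood at 6.75, 6.53, 5.93 and 5.56, and the treated metastasis at 6.90, the highest of the 20 arrays. All 3 treated bladders lay below all 5 controls, and 4 of 4 metastases lay above the tumor mean, with overlap between metastases and tumors.

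The order of the Lpl means was metastasis (6.19 ± 0.55, SD, n = 4), control bladder (5.89 ± 0.10, SD, n = 5), tumor (5.55 ± 0.48, SD, n = 7) and treated bladder (5.39 ± 0.09, SD, n = 3). Metastasis minus tumor was 0.64 ± 0.23 (SE), with a 95% interval from 0.15 to 1.13, limma's unadjusted p = 0.0131 and adjusted p = 0.825. It was 0.45 without metastasis 1 and 0.15 within the near-mean arrays alone, and 1.12 without them. Treated bladder minus control was -0.50 ± 0.27 (SE), with limma's adjusted p = 1.

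The 3 metastasis arrays highest for Lpl were also high for macrophage genes and for some hepatocyte genes. In metastasis minus tumor, 13 of 14 macrophage genes had a mean difference above 0 (median 0.43), and 8 of 9 measured hepatocyte genes did (median 1.05), with 0 of either list called. The macrophage list stood at 1.34, 0.80 and 0.76 above its mean in metastasis 1, metastasis 2 and the treated metastasis, and between -0.16 and -0.10 in metastasis 3 and 4. In those first 3 arrays 13, 13 and 14 of the 14 macrophage genes lay above their own mean, and the macrophage enzyme Lyz2 stood at 12.75, 12.61 and 12.44. Of the 9 hepatocyte genes, 9 lay above their own mean in metastasis 2 and 5 in the treated metastasis. In metastasis 1 only Ahsg (10.58), Trf (11.92) and Cyp2e1 (8.81) did, while the other 6 lay below it, with Alb at 5.06 and with Fgb (4.65) and Ttr (4.34) at their lowest of the 20 arrays. Over the 20 arrays Lpl had r = 0.60 with the macrophage list and 0.74 with the hepatocyte list. These are descriptions over arrays that share their tissue, and their part in the Lpl difference was not tested.

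Fabp4, the fatty acid carrier, spanned the most of the 7 members, 2.64 over the 20 arrays, a span wider than that of 96.2% of all genes. Its values were 8.69, 8.35, 7.41, 8.50 and 8.37 in control bladders 1, 2, 4, 5 and 6, and 9.09, 8.44 and 7.98 in treated bladders 1 to 3. The tumors ran from 7.96 to 10.04 with a median of 8.39. The metastases stood at 9.91, 7.61, 9.06 and 8.43, and the treated metastasis at 8.60. Single arrays rather than groups stood apart, namely bladder tumor 7 and metastasis 1 at the top and control bladder 4 and metastasis 2 at the bottom.

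Means of Fabp4 were 8.26 ± 0.50 (SD, n = 5) in control bladder, 8.50 ± 0.55 (SD, n = 3) in treated bladder, 8.54 ± 0.71 (SD, n = 7) in tumor and 8.75 ± 0.97 (SD, n = 4) in metastasis. The metastasis minus control difference was 0.49 ± 0.44 (SE), with limma's adjusted p = 0.825. Over the 20 arrays Fabp4 had r = 0.19 with the macrophage list and 0.12 with the endothelial list, the other cell types that make it. It had r = 0.64 with 20 measured genes of fatty acid and triglyceride synthesis, a list that includes Cd36, which macrophages also make. Among single genes, the macrophage gene Clec10a and the resistin-like gene Retnla (both r = 0.75) were among the 3 closest to Fabp4. The part of each cell type in the Fabp4 values was not tested.

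**Figure D2:**
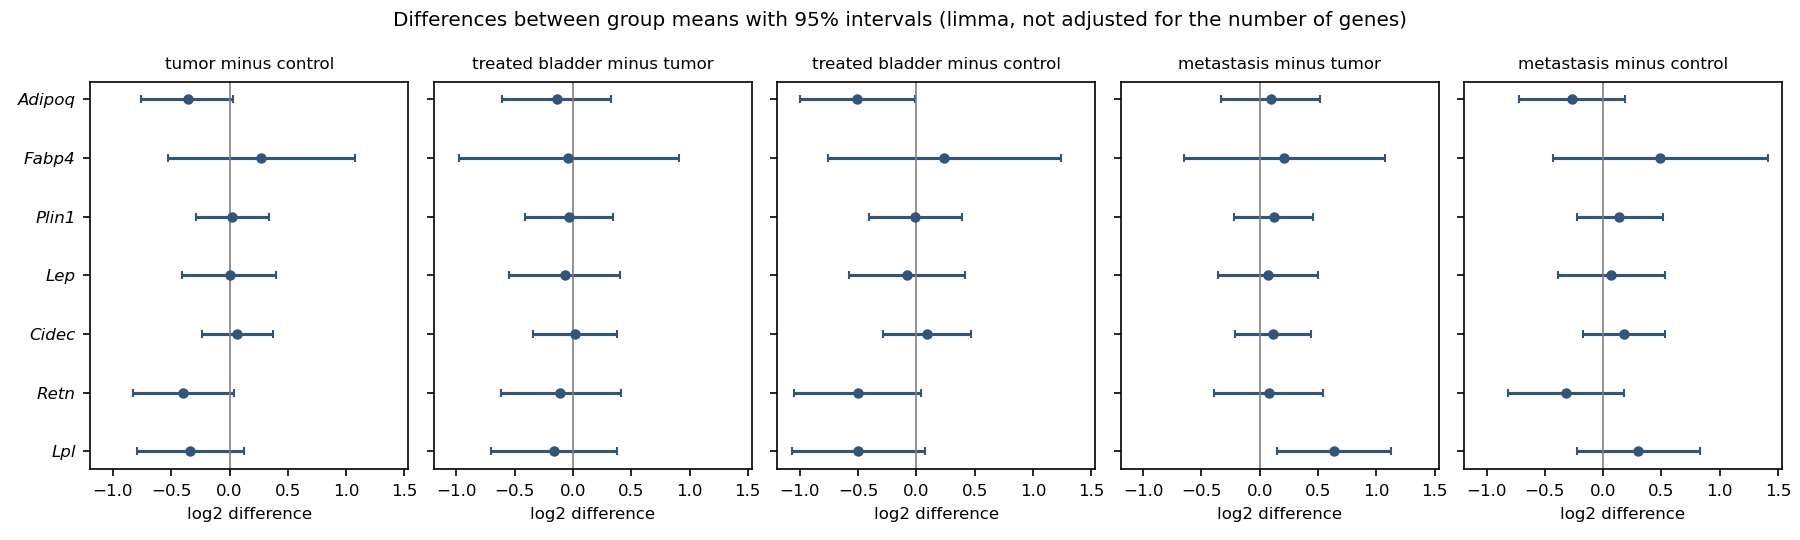
Difference of group means (x axis, log2) for each of the 7 measured adipocyte genes in each of 5 comparisons, with 95% limma intervals as bars. The intervals of Adipoq in treated bladder minus control (-1 to -0.01) and of Lpl in metastasis minus tumor (0.15 to 1.13) leave out 0, and none passed after adjustment over all genes.

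Counts over the members were set beside those over all genes. In treated bladder minus control, 2 of 7 members (Adipoq and Lpl) were lower with groups that did not overlap, against 0.478% of all genes, and 0 were higher in that way, against 0.717%. In tumor minus control, treated bladder minus tumor, metastasis minus tumor and metastasis minus control, 0 of 7 members had groups that did not overlap. Of all genes, 0.106% were higher and 0.073% lower without overlap in the first of these comparisons, 0.133% and 0.0332% in the second, 0.156% and 0.358% in the third, and 0.995% and 1.95% in the last.

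In metastasis minus tumor, all 7 members had a mean difference above 0, against 43.8% of all genes, with a median of 0.11 beside -0.03 for all genes. Metastasis 1 carried much of this. The mean over the members was 0.19 with it and 0.05 without it, and Adipoq and Retn each went to -0.12 without it. In the other comparisons the members with a mean difference above 0 were 3 of 7 in tumor minus control (53% of all genes), 1 of 7 in treated bladder minus tumor (49.4%), 2 of 7 in treated bladder minus control (52.8%) and 5 of 7 in metastasis minus control (47.1%). None of these differences passed the test.

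Adipoq, Retn and Lpl kept a lower mean in treated bladder than in control in all 18 settings in which they were computed, scalings included, with differences from -0.62 to -0.38 for Adipoq, from -0.75 to -0.40 for Retn and from -0.67 to -0.40 for Lpl. Without the near-mean arrays they were -0.62, -0.75 and -0.40, from only 2 controls. In the same comparison 16 of 22 measured genes of the other white fat list had a mean difference below 0 (median -0.08). So did 12 of 18 of the droplet and lipolysis list (median -0.04) and 15 of 20 of the fatty acid and triglyceride list (median -0.04). Of the adipogenic regulators 6 of 11 did (median -0.03), but only 3 of 10 brown fat genes (median 0.05), beside a median of 0.01 for all genes. Lists of other cell types tilted down too, with 10 of 11 measured fibroblast genes (median -0.16), 10 of 12 smooth muscle (-0.15) and 11 of 14 macrophage genes (-0.05). The same held for 9 of 12 skeletal muscle (-0.04), 7 of 11 endothelial (-0.04) and 6 of 9 hepatocyte genes (-0.01). The neutrophil (0.15), urothelium (0.13), mammary (0.12) and lung epithelium (0.07) medians lay above 0. The part of these cell types in the members' values was not tested.

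**Figure D3:**
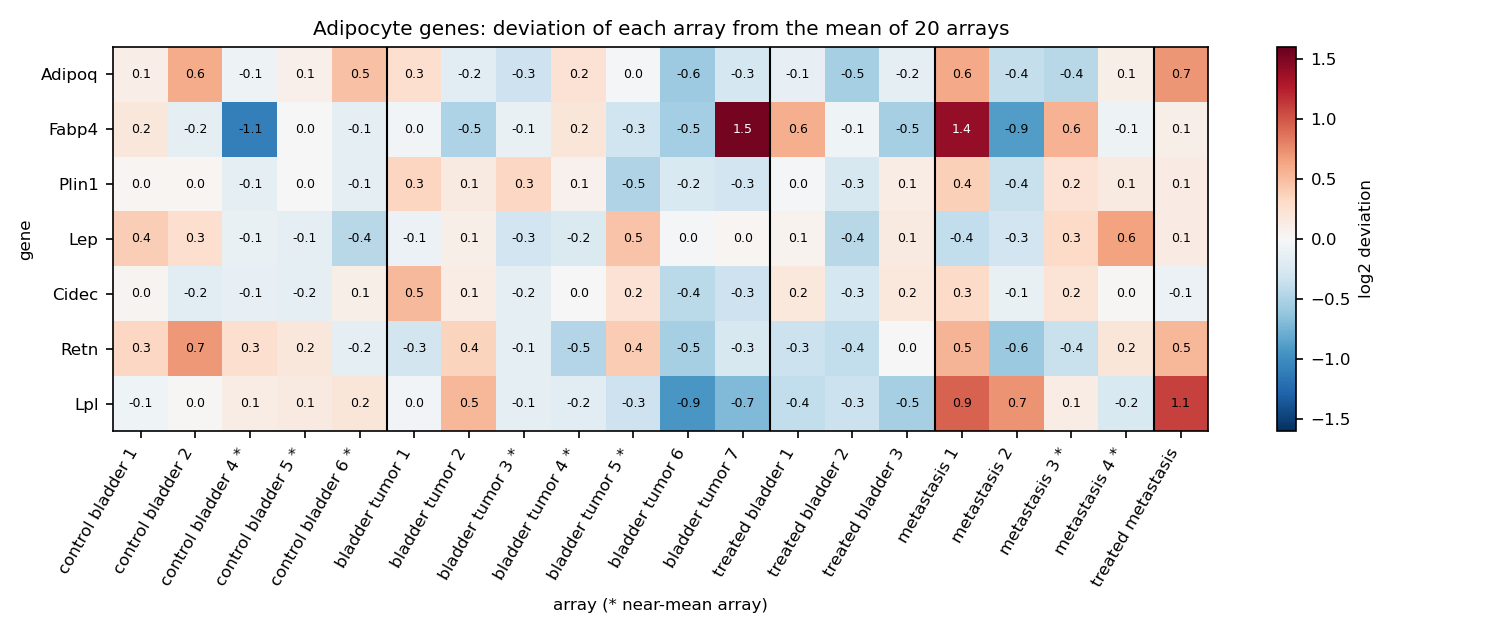
Log2 value of each adipocyte gene (rows) in each of the 20 arrays (columns) minus the gene's mean over all arrays. Metastasis 1 (mean 0.54) and the treated metastasis (0.37) are highest, and bladder tumor 6 (-0.47) is lowest.

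Array by array, the mean of the 7 centred members was highest in metastasis 1 (0.54), then in the treated metastasis (0.37), control bladder 2 (0.18) and control bladder 1 (0.15). It was lowest in bladder tumor 6 (-0.47), treated bladder 2 (-0.33) and metastasis 2 (-0.27), and in both bladder tumor 6 and treated bladder 2, 0 of 7 members lay above their own mean. By group it was 0.03 ± 0.14 (SD, n = 5) in control bladder, -0.08 ± 0.19 (SD, n = 7) in tumor, -0.15 ± 0.16 (SD, n = 3) in treated bladder and 0.12 ± 0.33 (SD, n = 4) in metastasis. The 4 metastases had the widest spread, from -0.27 to 0.54. In metastasis 1, 6 of 7 members were among the 3 highest of the 20 arrays, the exception being Lep.

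The treated metastasis is a single array with no replicate. Adipoq (6.34 against 5.19 to 6.24) and Lpl (6.90 against 5.56 to 6.75) lay above the range of the 4 untreated metastases, by 0.74 and 0.71 from their mean, and the other 5 members lay inside it. Of all genes, 14.4% lay above and 19.1% below the range. The macrophage list stood at 0.76, the hepatocyte list at 0.81 (5 of 9 genes above their own mean) and the fibroblast list at 0.68 above its mean in this array, and their part was not tested.

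Over all 20 arrays, with this single array taken to vary like the other groups, limma's difference between the treatment effects in metastasis and in bladder was 0.88 ± 0.42 (SE) for Adipoq, with adjusted p = 0.984. For Lpl it was 0.87 ± 0.49 (SE), also with limma's adjusted p = 0.984. No gene of 30142 was called in this fit, 0%, and 821 had an unadjusted p under 0.05. This fit was chosen after the values had been seen.

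The members did not rise and fall as a single block. Of their 21 pairs, 17 had a Pearson r above 0 over the 20 arrays, with a median of 0.23 and a range from -0.22 to 0.64. All such correlations are descriptions over arrays that share their tissue and normalisation. Adipoq and Retn had the highest (r = 0.64, rho = 0.63), and it was 0.52 without metastasis 1 and the treated metastasis. Plin1 and Cidec, the droplet pair, had r = 0.48, and Lep and Lpl the lowest at -0.22.

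These relations stood higher in the arrays outside the near-mean set. Over those 12 arrays the median r was 0.32, with Plin1 and Cidec at 0.84 and Adipoq and Retn at 0.82. Within the 8 near-mean arrays the median was -0.10, with Plin1 and Cidec at -0.38 and Adipoq and Retn at 0.04. The SD of Lpl was 0.66 in the 12 arrays and 0.20 in the 8, a ratio of 3.26, and that of Cidec, Fabp4, Adipoq and Retn was between 1.45 and 1.73 times as large in the 12. Plin1 (ratio 0.95) and Lep (0.66) varied no more in the 12 than in the 8, beside a median ratio of 1 over all genes, and the smooth muscle list had a ratio of 7.86.

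Other genes of fat were described from 5 lists with 81 measured genes, of which 0 were called in any comparison. The highest array was metastasis 1 for 21 of the 81 (25.9%), against 8.64% of all genes, and it was among the 3 highest for 32 (39.5%, against 17.9%). Those 21 included the fatty acid transporter Cd36, the synthesis enzymes Fasn, Acaca, Acly and Me1, the adipogenic factor Cebpa, the droplet genes Plin2, Cidea and Bscl2, and the brown fat genes Ucp1, Cox8b, Cox7a1 and Fabp3. The brown fat list did not move as a whole in metastasis 1, where 6 of its 10 genes lay above their own mean and 4 below, with Otop1 (4.37) and Prdm16 (5.2) at their lowest of the 20 arrays and Dio2 (4.70) and Ppargc1a (4.95) also below their means. Metastasis 1 was not alone in standing high for the 81 genes. Control bladders 1 and 2 were each among the 3 highest for 19 of them (23.5%), against 9.26% and 9.41% of all genes. The treated metastasis was among the 3 highest for 23.5%, against 15.3%. Treated bladder 2 was among them for 15 (18.5%, against 10.6%), though 0 of 7 members lay above their own mean there. Bladder tumor 7, where Fabp4 peaked, was highest for 10 of the 81 (12.3%, against 6.19%), among them Pparg, the master regulator of adipocyte formation, and the droplet gene Plin4. Pparg, which urothelium also expresses, ran from 4.66 in bladder tumor 6 to 6.87 in bladder tumor 7, where the urothelium list stood at -1.49 and 2.77. It did not follow the members, standing at 6.67 in treated bladder 2 (member mean -0.33), 5.26 in metastasis 1 (0.54) and 4.74 in the treated metastasis (0.37). Over the 20 arrays it had r = 0.87 with the urothelium list and 0.92 with the smooth muscle list.

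By list, 18 of 19 droplet and lipolysis genes were measured, with the widest ranges in Cav1, a caveolar coat protein (5.90 to 8.43), and Plin2, a droplet coat of many cell types (6.52 to 8.91). Of 22 fatty acid and triglyceride genes 20 were measured, led by Cd36 (5.72 in bladder tumor 6 to 9.24 in metastasis 1) and Me1, which supplies NADPH (5.49 to 7.87). Of 12 adipogenic regulators 11 were measured, led by Cebpd (5.02 to 7.56) and Pparg. Of 24 other white fat genes 22 were measured, led by the acute phase gene Orm1 (5.43 to 9.70) and the carbonic anhydrase gene Car3 (4.60 to 8.11). All 10 brown fat genes were measured, led by Dio2, the deiodinase (4.63 to 6.30), and Cox8b (4.52 to 6.27). Plin2 and Cd36 are also made by macrophages, whose list stood at 1.34 in metastasis 1, the highest array for both. Orm1 is also made by liver and peaked in metastasis 2, where the hepatocyte list stood at 1.95.

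**Figure D4:**
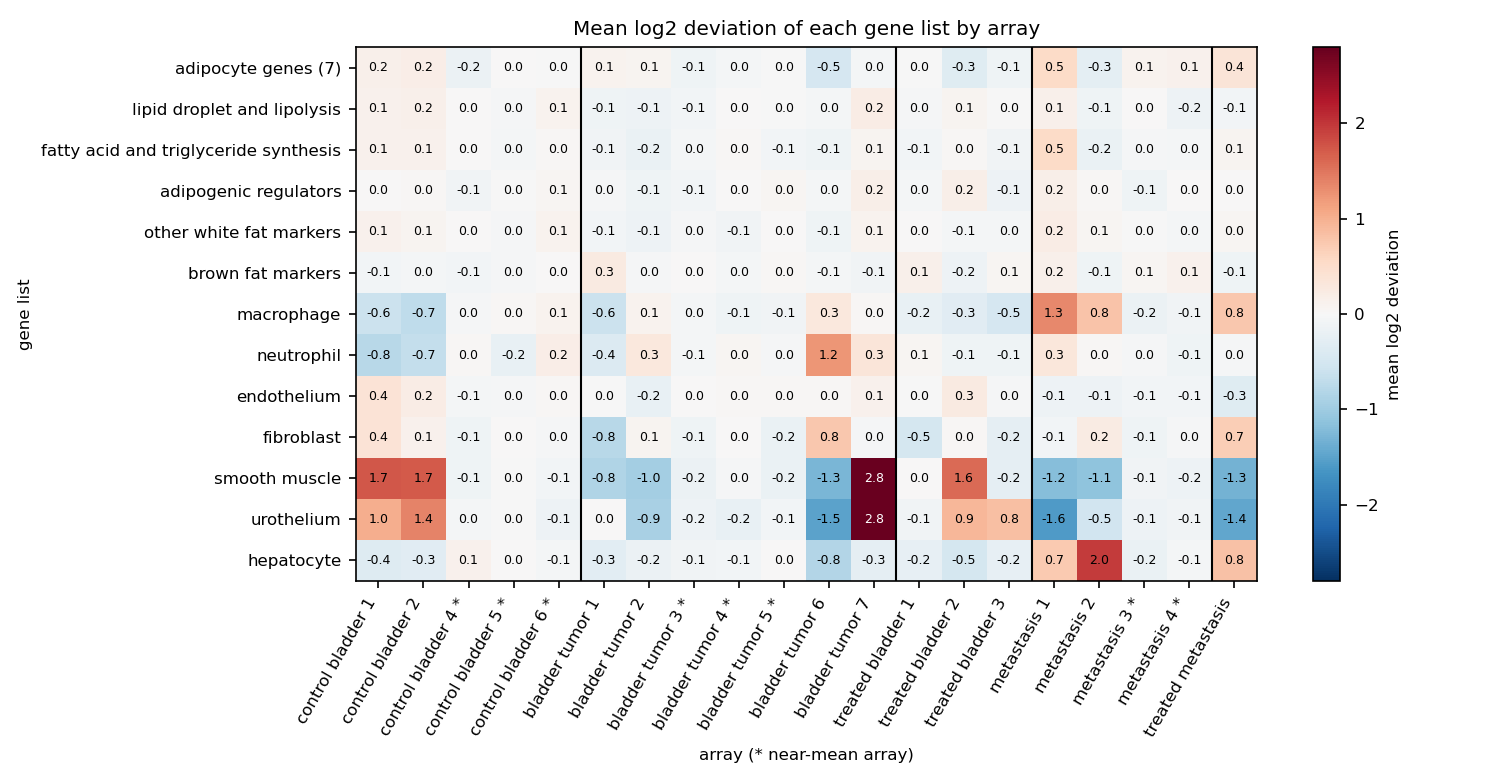
Mean centred log2 value of the adipocyte genes, of 5 lists of other fat genes and of 7 lists of other cell types (rows) in each of the 20 arrays (columns). The smooth muscle and urothelium lists span far more than the adipocyte genes, and metastasis 1 is high for the members (0.54), fatty acid and triglyceride genes (0.54) and macrophage genes (1.34).

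The medians of the fat lists lay near 0. In metastasis minus tumor, the median difference was 0.01 for droplet genes, 0.07 for fatty acid and triglyceride genes, -0.01 for regulators, -0.02 for other white fat genes and 0.01 for brown fat genes, beside 0.11 for the members. In tumor minus control, the medians were -0.06, -0.08, 0.00, -0.09 and 0.01 in that order, beside 0.00 for the members and 0.01 for all genes. The smooth muscle list differed by -0.73 in that comparison, with 12 of 12 genes below 0 and 0 called.

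The 10 genes whose pattern over the 20 arrays was most like the mean of the members, among 19507 candidates, had r from 0.72 to 0.81. The highest was H2-Aa, an MHC class II chain of antigen-presenting cells (r = 0.81, and 0.88 over the 12 arrays outside the near-mean set). Cd36 and Lgals12, a galectin gene expressed in fat, both had r = 0.76. The others were Ptprd, Cyp2e1, Smtnl2, Adhfe1, Aldh1a2, Fndc5 and Gstm2. Metastasis 1, also the highest array for the members, stood far above the rest for some of these. Gstm2 was 12.0 there and at most 8.01 elsewhere, Cd36 9.24 and at most 7.11, and Cyp2e1 8.81 and at most 7.06. How far the r values rest on that array was not tested.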

How the data were processed

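Total RNA extracted with a kit for fixed, embedded tissue was hybridised to Affymetrix whole-transcript arrays from 12 ng, as the labels' protocols state. Per the submitters' processing notes, the authors used RMA and Affymetrix Expression Console, and deposited log2 values. RMA as usually run equalises array distributions, which removes differences in total RNA, but the deposited columns were not equal. The sources used here give no versions or batch step. Array medians over 65956 rows ran from 5.07 to 5.42, values from 2.29 to 22, and 284 rows held values above 16, more than 16-bit scanning can give, and the step behind these is not known here.

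The platform annotation gave 30604 rows with 1 symbol. Those with several (2146) or none listed (33206) were not used. Symbols were updated through the GRCm38.p6 table (827 of 22818 looked up), and 355 genes had more than 1 row, of which that of highest mean was kept.

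limma 3.58.1 (R 4.3.3; lmFit, eBayes, two-sided) was fitted to the 19 arrays of the 4 replicated groups, with Benjamini-Hochberg adjustment over 30142 genes in each of 5 comparisons. It was first tested on simulated data. The treated metastasis entered no comparison except a separate fit over 20 arrays. Other settings tried were the 2 groups alone, array weights, trended and robust priors, a second quantile normalization, median centring, a filter on dim genes, all rows, a replicate block, the chemosensory mean as covariate, the near-mean arrays left out or alone, and each array left out.

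The members and lists were chosen with earlier results of these data known. All members are named. From each list the called genes, or otherwise the 2 with the widest range, are named. Genes most like the members are the 10 (3 for a single member) with the highest Pearson r, without predicted and small RNA genes. Pairs of members, Xist, Lyz2, the hepatocyte genes, the brown fat genes low in metastasis 1, the array-peak genes and the motifs were picked after values were seen. Promoters came from RefSeq (GRCm38.p6) for 6 of the 8 genes. Depth does not apply to arrays; their number limits the precision.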

Additional observations from a re-analysis of the deposited data

Results flagged for a closer look

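In each group of 4 to 7 arrays, the gap between the extreme array and its nearest neighbour was set against the group's range with Dixon's 95% critical value, for the 7 members and their mean. Of 24 such groups, 3 had an array beyond it, where chance gives about 1 in 20. Fabp4 stood at 10.04 in bladder tumor 7, with the next tumor at 8.70, a gap of 0.65 of the range. Fabp4 was lowest of the controls in control bladder 4 at 7.41, with the next at 8.35, a gap of 0.74 of the range. The mean of the members stood at -0.47 in bladder tumor 6, with the next tumor at -0.13, a gap of 0.61 of the range. Bladder tumor 7 also had the highest smooth muscle (2.76) and urothelial (2.77) lists, and bladder tumor 6 had low levels of both (-1.28 and -1.49) and a chemosensory mean of 4.65; the part of these in the 3 values was not tested.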

How the results depend on the processing

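The 7 members in 5 comparisons gave 35 differences and 706 values under other settings. None was called under any of them (lowest adjusted p 0.309), 16 of the 35 kept their sign in all settings and 62 values changed sign. Lower Adipoq, Retn and Lpl in tumor than in control, and in treated bladder than in control, kept their sign throughout, as did higher Lpl in metastasis than in tumor (0.15 to 1.12). So did lower Adipoq, Retn and Lpl in treated bladder than in tumor, and lower Adipoq and Retn in metastasis than in control. In the other direction, Fabp4 stayed higher in tumor and in metastasis than in control, and Cidec stayed higher in metastasis than in control and in tumor.

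The other settings that turned a sign did so for differences whose main values lay within the spread between arrays, and the cause was not tested. The turned values could be larger. Lep in metastasis minus control went from 0.07 to -0.68 without the near-mean arrays, beyond its within-group SD of 0.34. Array weights gave 0.02 for Plin1 and 0.04 for Lep in treated bladder minus tumor, 0.02 for Plin1 in treated bladder minus control, -0.01 for Fabp4 and -0.09 for Retn in metastasis minus tumor, and -0.10 for Lep in metastasis minus control. A second quantile normalization gave 0.00 for Cidec in treated bladder minus tumor. The chemosensory covariate gave 0.00 for Plin1 in tumor minus control, 0.04 for Fabp4 and -0.07 for Cidec in treated bladder minus tumor, and -0.06 for Cidec in treated bladder minus control. Without the near-mean arrays the values were -0.04 for Plin1 in tumor minus control, -0.02 for Fabp4 in treated bladder minus control, -0.35 for Lep in metastasis minus tumor, and -0.01 for Plin1 and -0.68 for Lep in metastasis minus control. With the near-mean arrays alone they were 0.21 for Lep in tumor minus control, -0.13 for Adipoq and -0.02 for Retn in metastasis minus tumor, and -0.21 for Lpl in metastasis minus control.

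With the replicate block, Fabp4 was 0.12 and Cidec -0.09 in treated bladder minus tumor, and Plin1 was -0.05 in metastasis minus tumor and -0.03 in metastasis minus control. The mean over the members with the replicate block was -0.12, -0.15, -0.27, 0.15 and 0.03 in the 5 comparisons. Same-numbered samples correlated at -0.51 to 0.44 in 17 pairs, 2 of them above 0.1. Some of these pairs include a near-mean array, and the samples are of different tissues. Such correlations therefore cannot decide whether the numbers pair the samples.

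Leaving out 1 array at a time gave these ranges where the sign changed. In tumor minus control they were -0.04 to 0.10 for Plin1, -0.11 to 0.10 for Lep and -0.02 to 0.13 for Cidec. In treated bladder minus tumor they were -0.33 to 0.22 for Fabp4, -0.12 to 0.07 for Plin1, -0.19 to 0.11 for Lep and -0.05 to 0.18 for Cidec. In treated bladder minus control they were -0.05 to 0.50 for Fabp4, -0.10 to 0.09 for Plin1 and -0.19 to 0.10 for Lep. In metastasis minus tumor they were -0.12 to 0.23 for Adipoq, -0.17 to 0.59 for Fabp4, -0.12 to 0.22 for Lep and -0.12 to 0.25 for Retn, and for Lep in metastasis minus control -0.13 to 0.22.

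The count of all genes called, 0 in each comparison, became 1 in metastasis minus control with the 2 groups alone, 2 in metastasis minus tumor with array weights and 2 with dim genes left out. With the chemosensory covariate it was 1 in metastasis minus tumor and 3 in metastasis minus control, and without the near-mean arrays 1 in tumor minus control, 1 in treated bladder minus control, 4 in metastasis minus tumor and 5 in metastasis minus control. Leaving out 1 array gave 0 to 2 in metastasis minus tumor, with 2 without bladder tumor 6. None of these genes was a member. The SE of the members' differences ran from 0.15 to 0.48.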

Other observations

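For single members, the genes most like each over the 20 arrays, as a description, were these. Adipoq was closest to Trarg1, a gene of glucose transporter traffic in fat (r = 0.76), Rmdn2 (0.76) and Wrn (0.75). Fabp4 was closest to Atp6v1h (0.78), the macrophage gene Clec10a and the resistin-like gene Retnla (both 0.75). Plin1 was closest to Riox2 (0.83), Pigv (0.78) and Lgals12 (0.77), and Cidec to Aqp9 (0.85), Tmem232 and Nup210 (both 0.83). Lep was closest to Plk5 (0.79), Lpar6 (0.77) and Prdm16 (0.74), and Retn to Fzd3 (0.75), Rgs3 (0.73) and Tarbp1 (0.71). Lpl was closest to Gata4 (0.89), Prr15 (0.88) and Neto1 (0.87).

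Cidea, a droplet protein of brown fat, stood at 6.73 in metastasis 1, where the other 19 arrays lay between 4.93 and 5.63.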
